A study of Mus musculus with 6 samples.

Results

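The genes described here are Sftpd, Crispld2, Crispld1, Matn2, Matn4, Cpxm2 and Cpxm1, which encode secreted proteins of innate defence and of the extracellular matrix. They are 7 of 19940 genes in a table of RNA sequencing of mouse pancreatic islets. Each was found by its symbol, on 1 line of the table. The set was put together from genes seen to be higher in pregnancy and from their family relatives, so they were chosen by the ratio of the 2 group means that is given below, which is therefore a description only. Islets were hand-picked after enzyme digestion of the pancreas, from C57BL6/J mice at gestational day 14.5 (3 samples) and from nonpregnant littermates (3 samples). The labels give neither an age nor any genetic change for either group, and the series design mentions 5 animals in each group.

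Sftpd encodes surfactant protein D, a collectin, which is a soluble lectin that binds sugars on microbes and is best known from the lung. Crispld2 and Crispld1 encode secreted proteins with a CAP domain, the fold of the cysteine-rich secretory proteins, and LCCL domains. Matrilins such as Matn2 and Matn4 are adaptor proteins of the matrix, built from von Willebrand factor A and EGF-like domains, that link other matrix components to each other. Cpxm1 and Cpxm2 encode secreted relatives of carboxypeptidase E, with a discoidin domain and a carboxypeptidase-like domain for which no activity on standard substrates is known. Islet endocrine cells sit on a thin basement membrane shared with capillaries, and matrix genes in whole islets can be expressed by endocrine, vascular or stromal cells.

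The table holds 1 mean per group and gene and no value per library, so no spread between animals can be shown. The authors' mean reads summed to 87654449 in pregnant islets and to 84493872 in nonpregnant islets. Markers of beta cells took 22.2% of mean reads in pregnant islets and 18.9% in nonpregnant islets, as islet tissue would show. Markers of acinar cells, the enzyme-secreting cells around islets, took 1.69% in pregnant islets and 0.134% in nonpregnant islets, and 24 of 26 such genes passed the authors' test as higher. Over all genes, 7.57% passed as higher. The authors' test is called passed here at a deposited adjusted p under 0.05, and no source used here names the tool behind it. Nor does any say whether 1 sample is 1 animal, so what spread those p-values measure is not known.

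Promoter sequences are shown for Crispld2, which had the largest ratio of the 7 genes, and for the pair Cpxm2 and Cpxm1, of which only Cpxm2 passed the test. The RefSeq promoter table held 4 of the 7 genes (Crispld2, Matn4, Cpxm2 and Cpxm1). Each sequence is the 250 bases before the annotated start, read 5′ to 3′ on the gene's strand in build GRCm38.p6, with GC boxes and CCAAT boxes of either strand in capitals. The Crispld2 window is chr8:119992188-119992437 on the plus strand, the Cpxm2 window chr7:132154742-132154991 on the minus strand and the Cpxm1 window chr2:130397630-130397879 on the minus strand.
Crispld2: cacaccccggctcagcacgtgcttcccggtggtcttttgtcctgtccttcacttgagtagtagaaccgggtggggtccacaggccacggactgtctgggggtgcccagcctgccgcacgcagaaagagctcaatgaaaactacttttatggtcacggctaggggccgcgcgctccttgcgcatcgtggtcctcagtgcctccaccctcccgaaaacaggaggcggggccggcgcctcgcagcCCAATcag
Cpxm2: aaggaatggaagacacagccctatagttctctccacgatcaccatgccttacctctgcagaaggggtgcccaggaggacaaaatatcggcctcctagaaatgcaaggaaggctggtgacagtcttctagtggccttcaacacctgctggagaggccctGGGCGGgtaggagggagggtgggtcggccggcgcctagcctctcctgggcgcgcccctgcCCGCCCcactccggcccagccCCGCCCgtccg
Cpxm1: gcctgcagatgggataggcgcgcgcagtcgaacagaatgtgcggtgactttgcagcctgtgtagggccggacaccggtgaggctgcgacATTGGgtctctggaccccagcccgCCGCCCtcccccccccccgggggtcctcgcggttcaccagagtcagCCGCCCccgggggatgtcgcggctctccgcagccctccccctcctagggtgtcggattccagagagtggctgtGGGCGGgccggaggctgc

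Of 32851 such windows in the table, 32.7% held the GC box GGGCGG and 33.8% the CCAAT box on either strand. The Crispld2 window held 1 CCAAT box and 0 GC boxes. The Cpxm2 window held 3 GC boxes and the Cpxm1 window 3 GC boxes and 1 CCAAT box, so this pair was alike in GC boxes. Guanine and cytosine made up 63.2% of the Crispld2 window, 64.0% of the Cpxm2 window and 70.8% of the Cpxm1 window, against a median of 52.4% over all windows. The element bound by STAT dimers, TTCNNNGAA, the half-site TGACG of the cAMP response element and the TATA box TATAAA had 0 matches in these windows and in both windows of Matn4. Those elements occurred in 7.02%, 17.8% and 12.4% of all windows, so most promoters of this length lack each of them. GC and CCAAT boxes were added to the search after these 3 elements had no match.

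Crispld2 showed the largest difference of the 7 genes. In the authors' deposited table it had a mean of 2330 reads in pregnant islets and 40 reads in nonpregnant islets, a fold change of 58.1. Its relative Crispld1 had 65 reads in pregnant islets and 75 reads in nonpregnant islets, a fold change of 0.89 that did not pass (adjusted p = 0.913 in the authors' deposited table). The pair therefore parted: by reads per kilobase of exon, Crispld2 was the higher of the 2 genes in pregnant islets (488 for Crispld2, 14.4 for Crispld1) and the lower one in nonpregnant islets (8.37 for Crispld2, 16.6 for Crispld1). Reads of whole islets cannot tell a change in the share of a cell type from a change in RNA per cell. The annotated transcripts of Crispld2 and Crispld1 shared 0 exact stretches of 25 bases. Stretches with mismatches and matches to other genes were not searched.

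Sftpd had a mean of 3058 reads in pregnant islets and 105 reads in nonpregnant islets, a fold change of 29.6 in the authors' deposited table. Per kilobase of merged exon this was 1265 reads in pregnant islets, above 86.3% of annotated genes, and 43.4 reads in nonpregnant islets, above 37.6%. Surfactant protein D is made in the lung by alveolar type II cells, and the other surfactant genes measured did not pass as higher. Sftpc, the gene of a hydrophobic surfactant protein, had 20 reads in pregnant and 14 reads in nonpregnant islets (adjusted p = 0.823 in the authors' deposited table). Sftpa1, a collectin of surfactant and the second gene downstream of Sftpd with a line in the table, fell to 87 reads in pregnant islets, against 264 reads in nonpregnant islets (fold change 0.34, adjusted p = 0.00312 in the authors' deposited table).

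**Figure D1:**
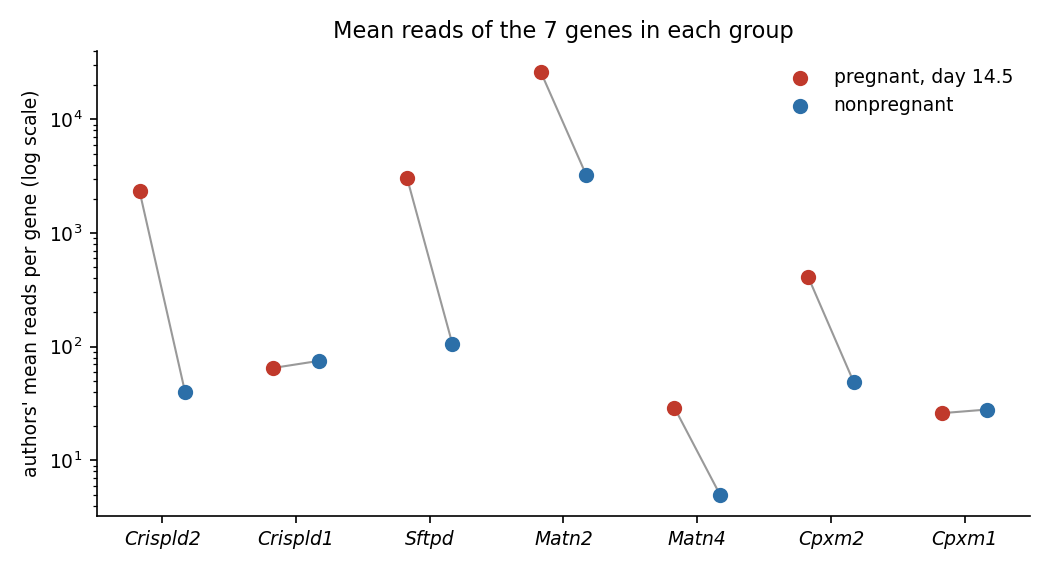
Authors' mean reads per gene (log scale) for the 7 genes, with the pregnant mean at the left and the nonpregnant mean at the right of each pair, 1 mean per group and no error bars. Crispld2, Sftpd, Matn2 and Cpxm2 stand far apart between the groups, whereas Crispld1 (65 and 75 reads) and Cpxm1 (26 and 28 reads) are level and Matn4 lies below 30 reads in both.

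Matn2 was the most abundant of the 7 genes in both groups. Its mean was 26197 reads in pregnant islets and 3245 reads in nonpregnant islets, a fold change of 8.26 in the authors' deposited table. Its 4183 reads per kilobase of exon put it above 96.7% of annotated genes in pregnant islets. Matn2 was well expressed without pregnancy too, where 518 reads per kilobase put it above 69.1%. Matn4, the other matrilin with a line in the table, had 29 reads in pregnant islets and 5 reads in nonpregnant islets. Its fold change of 4.81 did not pass (adjusted p = 0.285 in the authors' deposited table). Matn4 shared 149 exon bases with Rbpjl on the opposite strand, an acinar transcription factor gene whose mean was 681 reads in pregnant islets and 51 reads in nonpregnant islets. No source used here says whether counting used strand, and the part of Rbpjl reads in the value of Matn4 was not tested. Matn1 and Matn3 were not analysed here.

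Cpxm2 had a mean of 411 reads in pregnant islets and 49 reads in nonpregnant islets, a fold change of 8.4 in the authors' deposited table, close to that of Matn2 at a far lower level. Its relative Cpxm1 had 26 reads in pregnant islets and 28 reads in nonpregnant islets, a fold change of 0.94 that did not pass (adjusted p = 1 in the authors' deposited table). Per kilobase of exon, Cpxm2 stood at 88.9 reads and Cpxm1 at 10.7 reads in pregnant islets. In nonpregnant islets the pair lay side by side, at 10.6 reads per kilobase for Cpxm2 and 11.5 for Cpxm1. Transcripts of this pair shared 0 stretches of 25 bases, and the same held for Matn2 and Matn4.

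Across the 7 genes, the order of levels per kilobase in pregnant islets ran from Matn2 through Sftpd, Crispld2, Cpxm2, Crispld1 and Cpxm1 to Matn4. In nonpregnant islets it ran from Matn2 through Sftpd, Crispld1, Cpxm1, Cpxm2 and Crispld2 to Matn4, where the 4 genes before Matn4 lay between 8.37 and 16.6 reads per kilobase. With 1 mean per group, it is not known which neighbours in these orders differ beyond the spread between libraries. Among all genes of the table, Crispld2 had rank 13 by deposited log2 ratio, Sftpd rank 22, Cpxm2 rank 133, Matn2 rank 138 and Matn4 rank 251. The order by the authors' p-value was different. Matn2 had rank 6 and Sftpd rank 7, followed by Cpxm2 at rank 32 and Crispld2 at rank 114.

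**Figure D2:**
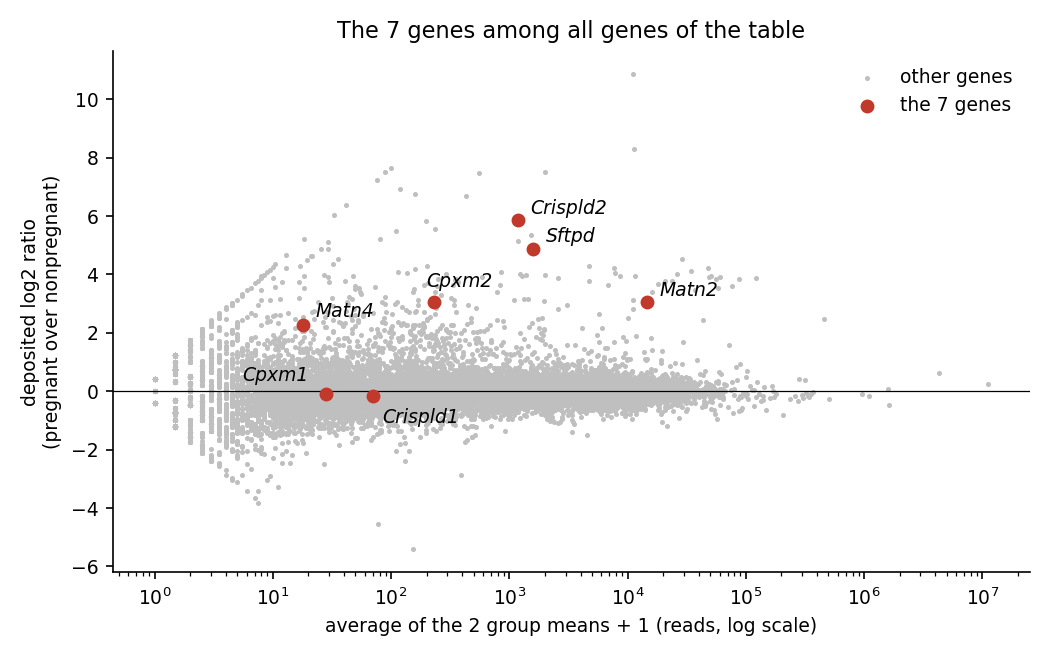
Deposited log2 ratio (pregnant over nonpregnant) against the average of the 2 group means plus 1 (reads, log scale) for every gene of the table, with the 7 genes in red. Crispld2 (5.86) and Sftpd (4.89) lie well above zero but below the highest gene, Tph1 (10.9). Cpxm2 and Matn2 lie near 3 at very different read levels, and Crispld1 and Cpxm1 close to the zero line.

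By the authors' test 4 of the 7 genes were higher and 0 lower, while 7.57% of all genes tested were higher. Nothing is read from that count, because the same contrast chose the genes. Averaged over the groups, all 7 reached 10 reads. Their median log2 ratio was 3.05, beside -0.02 over all genes. The genes nearest to them in deposited log2 ratio, among named genes that passed and reached the same 10 reads, were read over only 2 group means. For Crispld2 these were Syt10, a synaptotagmin (log2 ratio 6.04), and the anion exchanger gene Slc26a3 (5.57). For Sftpd they were the kallikrein genes Klk1b4 (4.88) and Klk1b11 (5.12), for Matn2 Klk1b3 (3.05) and Penk (3.06), and for Cpxm2 Cabp2 (3.06) and Penk, the preproenkephalin gene, again.

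Relatives of the 7 genes were called about as often as genes in general. Of 23 measured relatives that are not among the 7, 1 was higher and 2 were lower in the authors' deposited table, or 13.0%, beside 11.7% of all genes in either direction. Of these relatives, 15 averaged at least 10 reads over both groups, and every called one was among them. Of all genes at that level, adjusted among themselves, 16.2% were called. The median log2 ratio of the 23 relatives was -0.12. The higher one was Colec12, a membrane-bound scavenger receptor of the collectin family, with 3170 reads in pregnant islets and 768 reads in nonpregnant islets (fold change 4.24, adjusted p = 4.15e-10 in the authors' deposited table). The lower ones were Sftpa1, described above, and Coch, which encodes the LCCL domain protein cochlin. Coch had 26 reads in pregnant islets and 66 reads in nonpregnant islets (fold change 0.42, adjusted p = 0.0129 in the authors' deposited table).

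The lectin genes Mbl1, Mbl2, Colec10 and Colec11 had means of at most 10 reads in either group. Among CAP domain genes, 0 of 6 relatives passed the authors' test and 0 had an unadjusted p under 0.05. Over all genes 11.7% passed in either direction, so nothing is read from a count of 0 among so few. Pi15, a protease inhibitor gene next to Crispld1, had 109 reads in pregnant islets and 134 reads in nonpregnant islets, and Pi16 had 94 reads in pregnant and 108 reads in nonpregnant islets. Glipr1 (fold change 0.99) and Glipr2 (0.75) also did not pass, and Crisp2 and Crisp3 had at most 4 reads in either group. The remaining LCCL genes, Dcbld1, Dcbld2 and Vit, did not pass at fold changes of 1.06, 0.91 and 0.39 in the authors' deposited table, the last on 1 read in pregnant and 3 reads in nonpregnant islets.

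Among the carboxypeptidase E branch, to which Cpxm2 belongs, 0 of 6 relatives passed and 0 had an unadjusted p under 0.05. With 11.7% of all genes passing in either direction, nothing is read from that count. Cpe itself, which trims basic residues from proinsulin and other prohormones, had 283413 reads in pregnant islets and 315831 reads in nonpregnant islets (fold change 0.92, adjusted p = 0.572 in the authors' deposited table). Cpd, Cpn1 and Cpm lay between fold changes of 1.02 and 1.11, Aebp1, a carboxypeptidase-like matrix protein gene, at 0.76, and Cpz at 0.57 on 1 read in pregnant and 2 reads in nonpregnant islets. In the separate A/B branch of digestive and related carboxypeptidases, the acinar enzyme genes Cpa1 (fold change 15.1) and Cpb1 (14.3) were higher in the authors' deposited table.

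**Figure D3:**
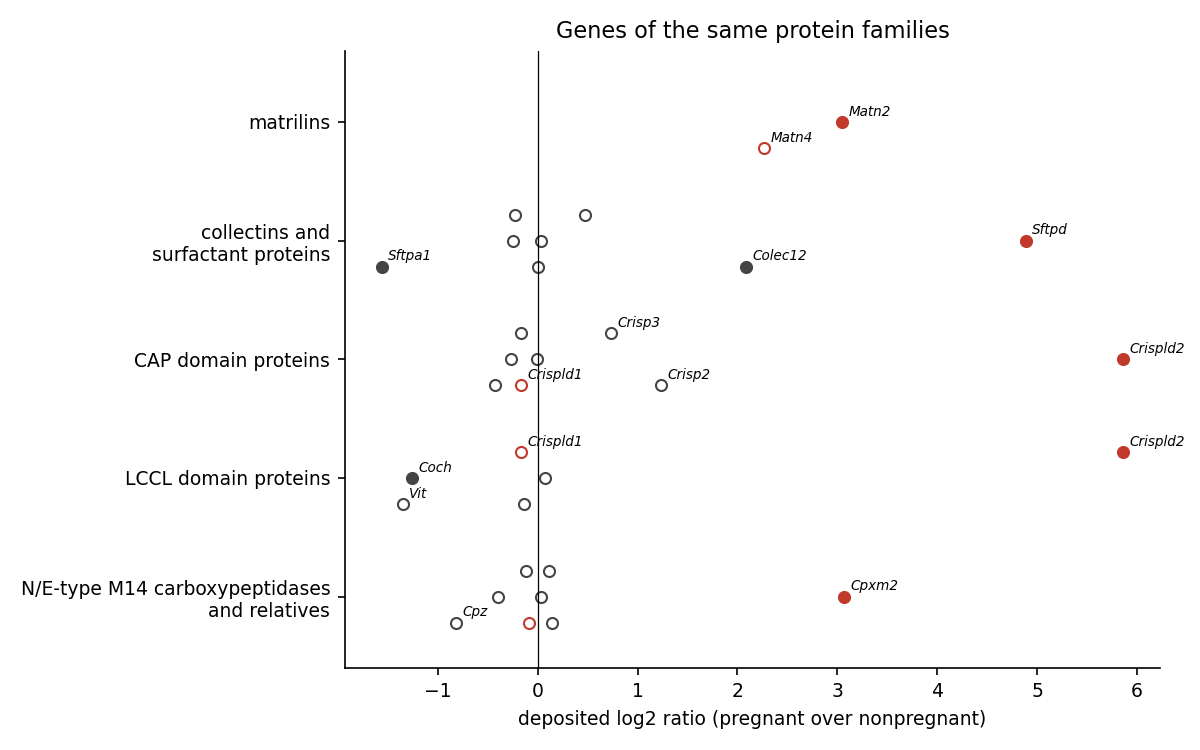
Deposited log2 ratio (pregnant over nonpregnant) of each measured gene in 5 protein families, with the 7 genes in red, filled circles for a deposited adjusted p under 0.05 and open circles for the rest. Names are printed for genes beyond 0.6 in size and for the 7 genes, except Cpxm1, and vertical offsets within a family carry no meaning. Colec12 (2.08) is the 1 dark filled circle to the right, and Sftpa1 (-1.56) and Coch (-1.26) are the filled circles to the left.

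Some other matrix genes passed the authors' test in each direction, and most did not pass. Of 46 basement membrane and matrix glycoprotein genes, 6 were higher and 3 lower in the authors' deposited table, beside 7.57% higher and 4.15% lower over all genes, and their median log2 ratio was -0.11. Their fold changes lay between 0.29 and 1.65. Crispld2, Sftpd, Matn2 and Cpxm2 lay above these, but they were chosen by this ratio, so nothing is read from the gap. Spon2, of the F-spondin family, had 1416 reads in pregnant islets and 2110 reads in nonpregnant islets (fold change 0.69, adjusted p = 0.000106). Tgfbi, a matrix protein gene induced by TGF-beta, had 499 reads in pregnant islets and 309 reads in nonpregnant islets (fold change 1.65, adjusted p = 0.000152). Fbln5, of elastic fibres, fell to 91 reads in pregnant islets, against 183 reads in nonpregnant islets (fold change 0.52, adjusted p = 0.00113), all in the authors' deposited table. The other higher genes were Emilin1 (fold change 1.55), Vtn (1.52), Nid2 (1.38), Npnt (1.33) and Col4a2 (1.25). The other lower gene was Lama2 (0.66).

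Genes around the 7 were compared next, since position was not used to choose them. Cpxm2 (chromosome 7, 132032687 to 132154739, minus strand, GRCm38) lies 38.3 kb from Gpr26, which encodes an orphan G protein-coupled receptor. Gpr26 rose to 2283 reads in pregnant islets, against 65 reads in nonpregnant islets (fold change 35.3, adjusted p = 1.99e-227 in the authors' deposited table), while Chst15, a sulfotransferase gene 81.0 kb to the other side, did not pass (fold change 0.99). Cpxm2 and Gpr26 lie on opposite strands with their 3′ ends facing each other, and they shared 0 exon bases. The antisense gene Gm15677 shared 351 exon bases with Cpxm2, and had 1 read in pregnant islets and 0 reads in nonpregnant islets. The annotated span of the receptor gene Fgfr2 covers Cpxm2 on the same strand without shared exon bases, and Fgfr2 had 162 reads in pregnant islets and 77 reads in nonpregnant islets (fold change 2.15, adjusted p = 0.000555 in the authors' deposited table).

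Crispld2 (chromosome 8, 119992438 to 120052793, plus strand) contains the antisense transcript Gm15684 within its span. Gm15684 had 39 reads in pregnant islets and 1 read in nonpregnant islets (fold change 24.5, adjusted p = 7.03e-08 in the authors' deposited table). It shared 0 exon bases with Crispld2, but without known strand its reads cannot be told apart from intronic reads of Crispld2. Gm20388, whose annotated span covers Crispld2, fell to 85 reads in pregnant islets, against 213 reads in nonpregnant islets (fold change 0.41, adjusted p = 0.045 in the authors' deposited table). The flanking genes did not pass: Usp10, a deubiquitinase gene 34.9 kb away, stood at a fold change of 0.84 and Zdhhc7, a palmitoyltransferase gene 28.1 kb away, at 1.02.

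Both flanking genes of Matn2 (chromosome 15, 34306677 to 34436273, plus strand) passed as higher, at far smaller fold changes. Laptm4b, a lysosomal membrane protein gene, had 8823 reads in pregnant islets and 5942 reads in nonpregnant islets (fold change 1.52, adjusted p = 6.51e-07 in the authors' deposited table). Rpl30, a ribosomal protein gene, had 14761 reads in pregnant islets and 10790 reads in nonpregnant islets (fold change 1.4, adjusted p = 0.00235 in the authors' deposited table). On the opposite strand, 9430069I07Rik shared 70 exon bases with Matn2 and had no measured value. Sftpd (chromosome 14, 41172214 to 41185149, minus strand) lies 12.6 kb from Mbl1, which had 1 read in either group. Neighbours of Matn4 (chromosome 2, 164389393 to 164405160, minus strand) other than Rbpjl did not pass, with Slpi at a fold change of 0.85 and Sdc4, a syndecan, at 1.13. Crispld1 (chromosome 1, 17727045 to 17766344, plus strand) and Cpxm1 (chromosome 2, 130390775 to 130397574, minus strand) had 0 nearest neighbours that passed. The antisense gene Gm16070 shared 548 exon bases with Crispld1 and had no measured value.

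**Figure D4:**
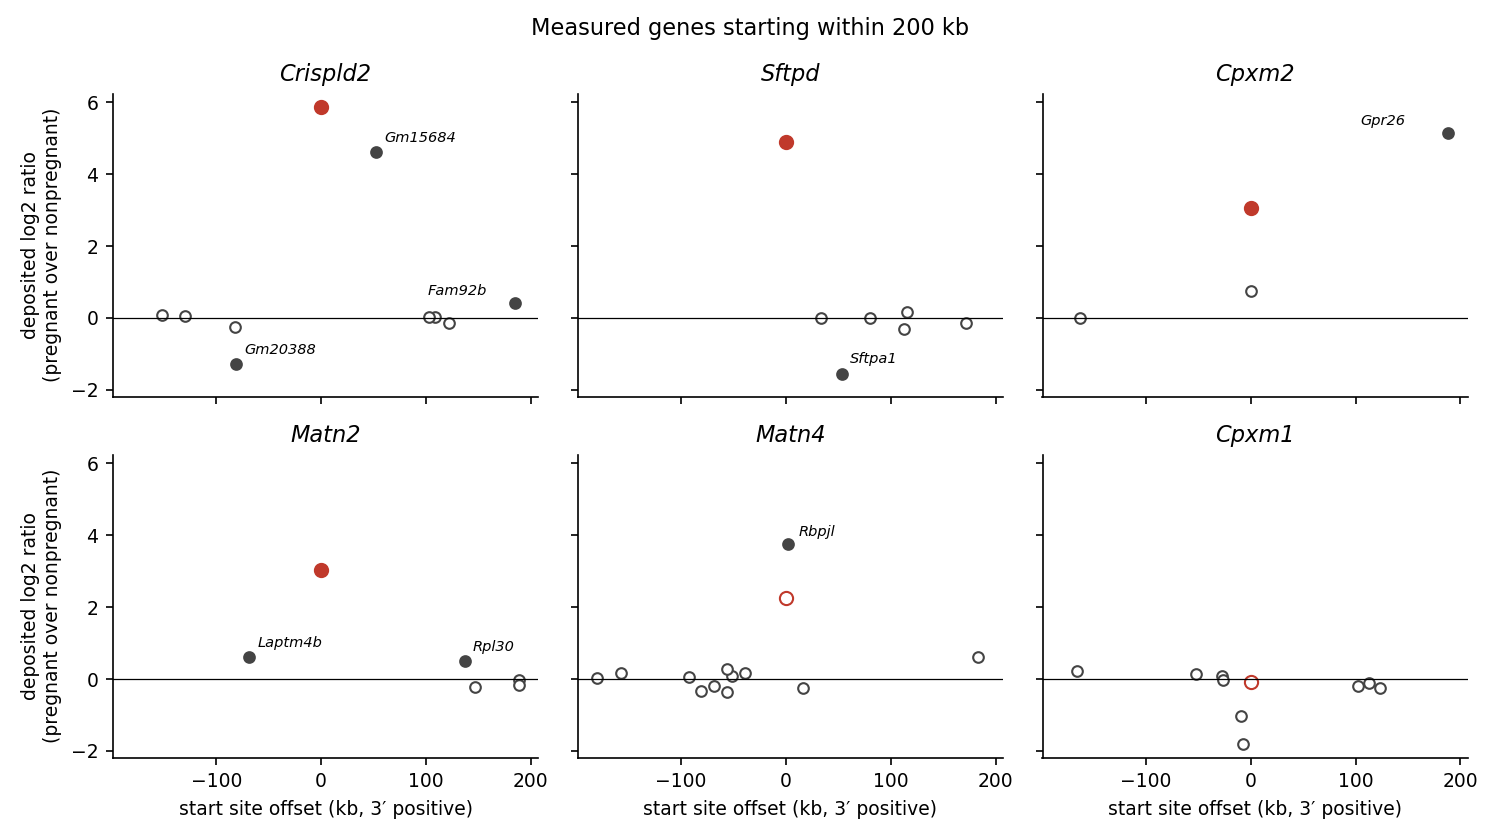
Deposited log2 ratio (pregnant over nonpregnant) of measured genes whose start lies within 200 kb of the start of 6 of the 7 genes, against the offset between starts in kb, positive in the direction of transcription. The named gene of each panel is red at 0, and filled circles passed the authors' test. Gpr26 (5.14) stands out beside Cpxm2, Gm15684 (4.62) in Crispld2 and Rbpjl (3.75) beside Matn4, while Sftpa1 (-1.56) lies below zero beside Sftpd.

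Markers of other cell types were read beside the 7 genes. Over all genes, 7.57% passed as higher and 4.15% as lower. The 26 acinar genes had deposited log2 ratios between -0.13 and 4.55, with a median of 3.88. Crispld2 (5.86) and Sftpd (4.89) lay above all genes of this list, and Matn2 and Cpxm2 below its median. The kallikrein genes Klk1b11 (5.12) and Klk1b4 (4.88), which are not on the list, lay near Sftpd. The members were chosen by this same contrast, so where their ratios lie beside these markers is description only. The part of acinar RNA in the values of the 7 genes was not tested. Markers of stellate cells and fibroblasts, which make much of the matrix in the pancreas, had 1 of 11 higher and 0 lower, with a median log2 ratio of -0.16. They summed to 14114 mean reads in pregnant islets and 12988 in nonpregnant islets, of which the 1 higher gene, Rgs5, held 10383 in pregnant and 8683 in nonpregnant islets. The rest did not pass. Their fold changes were 1.31 for Des, 1.09 for Pdgfrb, 0.95 for Col1a2, 0.91 for Thy1 and 0.89 for Col3a1. Those of Acta2, Col1a1, Lum, Dcn and Pdgfra were 0.83, 0.68, 0.55, 0.48 and 0.42. Endothelial markers had 0 of 10 higher or lower by the adjusted p and 1 with an unadjusted p under 0.05, and summed to 40292 mean reads in pregnant islets and 41706 in nonpregnant islets.

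Of 8 Schwann cell markers, 1 was higher and 0 lower in the authors' deposited table. It was Ngfr, the low-affinity neurotrophin receptor gene, with 1426 reads in pregnant islets and 137 reads in nonpregnant islets (fold change 10.6, adjusted p = 8.86e-08). Sox10, a defining Schwann cell factor, had 10 reads in pregnant islets and 31 reads in nonpregnant islets and did not pass. Of 7 alveolar type II markers 0 were higher and 2 lower, and Sftpc, Lamp3, Slc34a2 and Napsa had at most 51 reads in either group. Macrophage markers had 1 of 10 higher (Lyz2, fold change 1.32) and duct markers 2 of 10 higher (Epcam at 1.51 and Muc1 at 2.64). Of the 10 macrophage markers, 8 had a log2 ratio above 0. C1qa, with the most reads of them, had 6370 reads in pregnant islets and 3195 reads in nonpregnant islets. Its fold change of 2.05 did not pass (adjusted p = 0.0752 in the authors' deposited table). Of 8 alpha cell genes 0 were higher and 4 lower, and of 6 delta and PP cell genes 0 were higher and 2 lower. Beside these counts, 7.57% of all genes were higher and 4.15% lower. Of 10 beta cell genes 2 were higher and 1 lower, at fold changes between 0.66 and 1.55 for all 10. All 9 genes of a list of prolactin and pregnancy responses, compiled with earlier results of these data known, were higher.

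**Figure D5:**
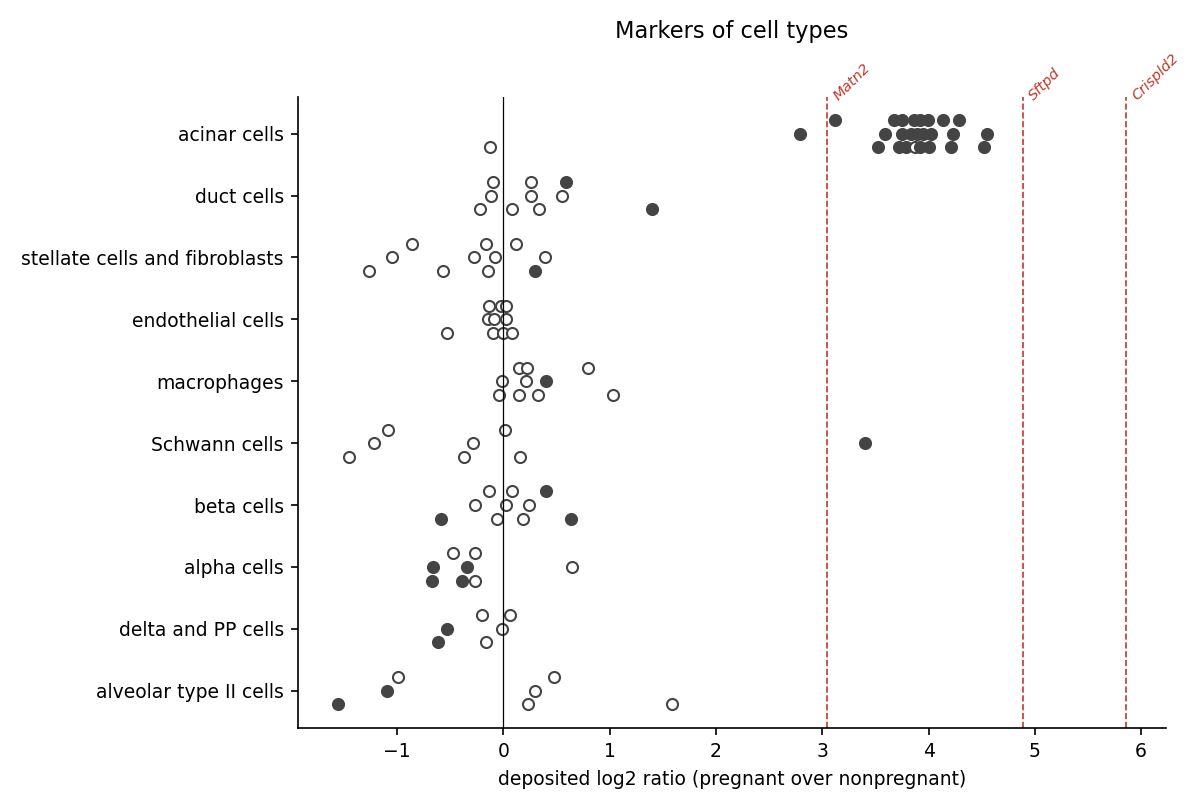
Deposited log2 ratio (pregnant over nonpregnant) of marker genes for 10 groups of cell types, with filled circles for a deposited adjusted p under 0.05 and open circles for the rest, and vertical offsets without meaning. Dashed lines mark Matn2 (3.05), Sftpd (4.89) and Crispld2 (5.86). Acinar markers form the 1 cluster near these lines, and Ngfr (3.41) is the single Schwann cell marker to the right.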

How the data were processed

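Per the submitters' processing notes, HTSeq 0.5.3p3, Bowtie, TopHat and TopHat2 2.0.12 were used with build GRCm38. The strand setting, any scaling and the test are not given in the sources used here. The authors deposited, per gene, a mean read number for each group, a fold change (linear ratio), its log2, a p-value and its adjusted form. The p-values were used as deposited. Recomputed Benjamini-Hochberg values differed by at most 0.00203, and the adjustment was also tested on simulated data. The deposited log2 ratio carried a pseudocount and an offset of 0.0351 above the log2 of the ratio of means. Of 19963 lines, those repeating a gene were counted once, leaving 19940 genes, of which 19256 had GENCODE M21 annotation (GRCm38) for positions and merged exon lengths.

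Members and gene lists were chosen with earlier results of these data known. The named genes are the 7 members, all relatives, neighbours, the nearest genes by log2 ratio, and for other lists those with the smallest p; list genes beyond these were named after their values were seen. The planned edgeR test, and DESeq2 as its alternative, need counts per library and were not run. Alternatives were the pseudocount, scaling, the threshold and the genes adjusted over. Python 3.11.15, pandas 2.3.3, numpy 2.4.6 and scipy 1.17.1 were used.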

Additional observations from a re-analysis of the deposited data

How the results depend on the processing

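The 4 higher members passed at thresholds of 0.01, 0.05 and 0.1 and when adjusted over only the 15682 genes that averaged 10 reads or more. With pseudocounts of 0, 0.5 and 2 the log2 ratio of each of the 7 genes stayed within the counting interval of its rounded means (exact binomial, 95%, counting error only). Matn4 moved most, between 2.18 and 2.57. Scaling to total mean reads differs from the deposited scale by -0.09. Recomputed so from the rounded means, Matn4 stood at 2.27, beside 2.27 as deposited, and Matn2 moved to 2.96, or to 2.98 when acinar genes were left out of the total. Its counting interval was 2.99 to 3.10. At a threshold of 0.01, 1 relative was lower in place of 2, since Coch no longer passed. With the longest transcript in place of merged exons, the order of levels was the same in pregnant islets, and Cpxm2 and Cpxm1 changed places in nonpregnant islets.

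No paired analysis was possible because the deposited columns are group means without replicate numbers. Leaving out single libraries and the count tests were not run. Ratios of Matn4, Crispld2 and Cpxm2 rest on 5, 40 and 49 mean reads in nonpregnant islets.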

Other observations

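Link proteins and proteoglycans hold hyaluronan and growth factors in the matrix. Of 16 such genes 1 was higher and 1 lower in the authors' deposited table, beside 7.57% higher and 4.15% lower over all genes, with a median log2 ratio of -0.59. Hapln1, a hyaluronan link protein gene, fell to 1426 reads in pregnant islets, against 2952 reads in nonpregnant islets (fold change 0.49, adjusted p = 1.74e-16 in the authors' deposited table). Hapln4, of the same family, rose to 13321 reads in pregnant islets, against 8600 reads in nonpregnant islets (fold change 1.59, adjusted p = 7.58e-09 in the authors' deposited table). The proteoglycan genes Dcn and Lum had fold changes of 0.48 and 0.55 and did not pass.

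Among alveolar type II markers outside the surfactant genes, Etv5, an ETS transcription factor gene, fell to 1631 reads in pregnant islets, against 3553 reads in nonpregnant islets (fold change 0.47, adjusted p = 0.0388 in the authors' deposited table). Abca3, a lipid transporter of lamellar bodies, had 14042 reads in pregnant islets and 12272 reads in nonpregnant islets and did not pass (adjusted p = 0.141 in the authors' deposited table).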
